A study of Mus musculus with 4 samples.

Results

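Narrow POU2F3 binding sites that lie close to another site were examined in tuft cells of the mouse small intestine. A site was taken as narrow when it was less than 400 bp wide, and as having a close neighbour when another listed site of any width lay within 1000 bp, measured from edge to edge. By this rule 526 of the 2828 sites in the authors' list were members, all on chromosomes 1 to 19, X and Y. Another 1224 narrow sites on these chromosomes had no such neighbour and are called lone narrow sites here. The members were chosen by their widths and gaps, and the score comes from the same immunoprecipitation and site calling. All values below are therefore descriptions without a test.

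The cells came from male C57BL/6J mice, with no transgene or treatment named in the labels, and no age is stated in the labels. Cells from the proximal 5 cm of the small intestine were sorted with antibodies to CD45, EpCAM and Siglec F, and about 10000 sorted cells were fixed with 1% PFA for 10 minutes. Chromatin was sonicated to 200 to 700 bp. POU2F3 was then precipitated by ChIPmentation, in which the Tn5 transposase adds sequencing adaptors to chromatin held on the beads. The series has 2 POU2F3 ChIP samples, 1 IgG control and 1 sample of input DNA. The labels describe the replicates as 2 pools of tuft cells from 3 mice and do not say how the mice were divided. The list holds a single set of sites for the whole series, with 1 score per site and no value per sample. No spread between replicates, read depth or control signal can be given for any site, and exact 95% intervals cover the counting of sites only. Such intervals treat sites as independent, which sites of 1 pair are not, so they are too narrow.

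POU2F3 is the POU-domain transcription factor that tuft cells, rare chemosensory cells of the gut and airway epithelium, need in order to form. A POU domain has a POU-specific part and a homeodomain joined by a flexible linker, and both parts contact the octamer motif. POU factors can also bind DNA as dimers, and regulatory elements often hold several factor sites within a short stretch. All positions are 1-based in mm9, the build named in the submitters' processing notes. An annotation and a genome of that build were not used here, so genes, exons, introns and sequence at the sites were not assigned, and the tuft cell label could not be checked against marker genes.

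Close neighbours were mostly very close. The median gap from a member to its nearest site was 97 bp. The middle 50% of gaps ran from 67 to 152 bp, the shortest was 53 bp and the longest 934 bp. The gap was 200 bp or less for 445 of the 526 members, or 84.6% (exact 95% interval 81.2 to 87.6%). Gaps below 75 bp were the most frequent, with 175 members, followed by 97 members at 75 bp or more but below 100 bp and 114 at 100 bp or more but below 150 bp. The gaps thus had a sharp lower edge, since the smallest one between any 2 nuclear sites was 53 bp, and the fullest part of the distribution began there. Beyond 200 bp the numbers were small, with 81 members in all, of which 35 lay more than 500 bp from their neighbour. Both sites of a pair usually share 1 gap, so these counts hold most gaps more than once. Chromatin had been sonicated to 200 to 700 bp, so most gaps were no longer than the shortest stated fragments. Whether sites with such gaps are separate binding events was not tested.

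**Figure D1:**
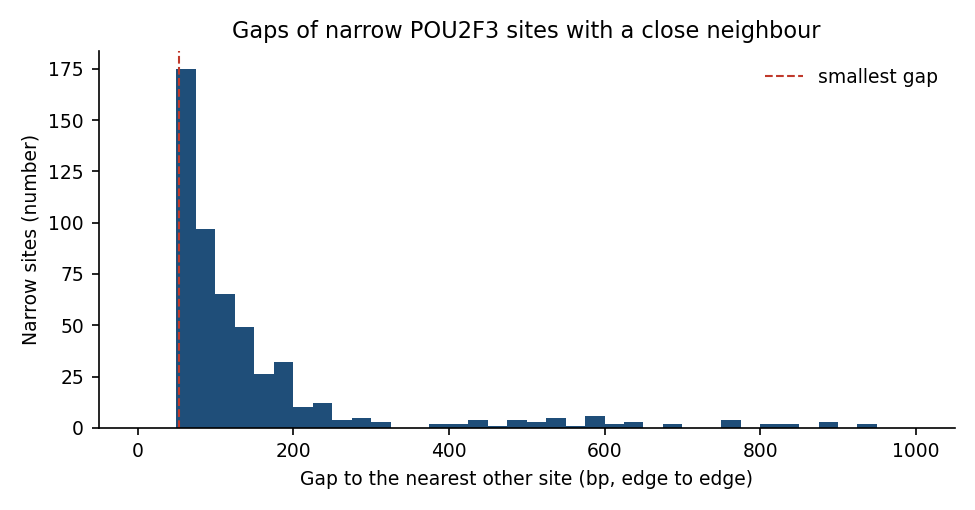
Number of narrow sites with a close neighbour by gap to the nearest other site in bp, in bins of 25 bp, with a dashed line at the smallest gap of 53 bp. The counts start at their highest value next to that line and fall towards 200 bp, with few sites beyond it.

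Most members formed isolated pairs. When all sites with gaps of up to 1000 bp were joined, the members fell into 282 chains that also took in 63 sites of 400 bp or more. A chain had 2 sites in 263 cases, or 93.3% (exact 95% interval 89.7 to 95.9%), 3 sites in 16, 4 sites in 2 and 7 sites in 1. In 212 of the pairs both sites were narrow, and in 51 the partner was 400 bp or wider. Of the 3-site chains, 7 held narrow sites alone, 6 held 2 narrow sites and 3 held 1. Members in chains of 3 or more sites numbered 51 of 526, and 23 members had a close neighbour on each side.

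Further neighbours, beyond the 1000 bp of the rule, were found at similar shares around chains and around lone sites. Another site lay more than 1000 bp but at most 10 kb away for 46 of the 282 chains, or 16.3% (exact 95% interval 12.2 to 21.2%). That was so for 179 of the 1224 lone narrow sites, or 14.6% (12.7 to 16.7%). Among sites of 400 bp or more without a close neighbour it was 159 of 988, or 16.1% (13.9 to 18.5%). The 3 shares lay within 2 percentage points of one another, and their intervals overlapped.

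A close neighbour was far more frequent among narrow sites than among broad ones. It was present for 526 of 1750 narrow sites, or 30.1% (exact 95% interval 27.9 to 32.3%), against 85 of 1073 sites of 400 bp or more, or 7.92% (6.38 to 9.70%). Width and gap are both set by where a listed site begins and ends, so these shares are not independent of the rule. The share was highest below 100 bp, with 55 of 117 sites or 47.0% (37.7 to 56.5%). It lay between 28.4% and 32.5% in the 5 width classes from 100 bp to below 300 bp. It was 22.1% at 300 bp or more but below 350 bp and 21.0% at 350 bp or more but below 400 bp. Past the width limit it was 6.84% (4.93 to 9.19%) at 400 bp or more but below 600 bp and 9.22% (6.81 to 12.1%) for wider sites. These classes differ in breadth, and width and gap are what the rule used, so the shares describe the list only. Among sites at or above the median score of the list, counted without the others, 107 of 595 narrow sites or 17.98% had a close neighbour.

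Members were slightly narrower than lone narrow sites. Their median width was 205 bp (95% interval of the median 199 to 211 bp), against 218 bp (212 to 223 bp). Sites below 100 bp made up 10.5% of the members (exact 95% interval 7.97 to 13.4%) and 5.07% of the lone narrow sites (3.91 to 6.45%). The most common width of the list, 199 bp, was about as frequent in both, with 46 members or 8.75% and 116 lone narrow sites or 9.48%. Of the 263 pairs, 42 held at least 1 site of exactly 199 bp, and in 1 pair both sites had that width. Width changed little with the gap. The median was 209 bp for members with gaps below 75 bp, 200 bp for gaps of 100 bp or more but below 150 bp, and 201 bp for gaps above 200 bp.

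A pair of narrow sites, measured from its outer ends, was about as wide as a broad site. The median span of the 212 pairs of narrow sites was 551.5 bp (95% interval 535 to 578 bp), and the middle 50% ran from 476.75 to 631.5 bp. For sites of 400 bp or more the median width was 583 bp (572 to 595 bp), and the middle 50% ran from 496 to 698 bp. Of the narrow pairs, 191 spanned 400 bp or more and 168 lay between 400 and 700 bp, while the longest reached 1451 bp. The shortest span was 199 bp, which 2 pairs had, at chr12:32915457-32915655 and chr4:98339386-98339584. In the median pair the gap took up 18.6% of the span, and the centres of both sites lay 331 bp apart (95% interval 323.5 to 341 bp). Measured by span, 90.1% of these pairs reached the 400 bp that set narrow and broad sites apart. The summed width of both sites, without the gap, already had a median of 432 bp. Span is made up of the widths and the gap that the rule used, and broad sites are 400 bp or more by definition. The likeness in extent is therefore not independent of the rule.

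**Figure D2:**
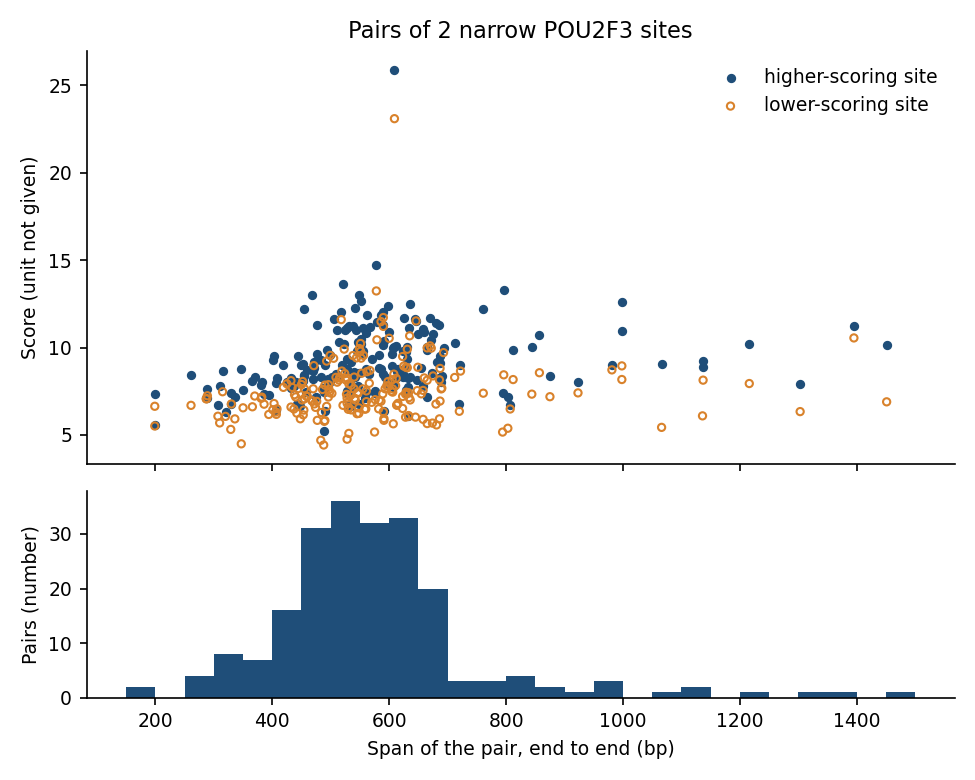
Scores (upper panel, unit not given) and number (lower panel, bins of 50 bp) of the 212 pairs of narrow sites against their span from end to end in bp. Filled points are the higher-scoring and open points the lower-scoring site of each pair. Most pairs lie between 400 and 700 bp, and 1 pair stands apart with scores of 23.1 and 25.9.

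Scores of pairs were set beside those of single sites of like extent, in classes of 100 bp chosen after the values were seen. The score is the authors' own value and has no unit in the sources used here, so it serves only to rank sites within this list. For spans of 400 bp or more but below 500 bp, the higher of both scores had a median of 8.19 (95% interval 8.02 to 8.73, n = 47), against 8.62 (8.43 to 8.80, n = 285) for single sites of that width. In the class from 500 bp to below 600 bp the medians were 9.34 (8.71 to 10.3, n = 68) and 9.58 (9.22 to 9.82, n = 300). In the class from 600 bp to below 700 bp they were 9.35 (8.64 to 10.0, n = 53) and 10.6 (10.2 to 11.0, n = 225). The median of the pairs was the lower one in all 3 classes. The intervals of both medians overlapped in the first and the second class but not in the third. For all extents of 600 bp or more, the medians were 9.30 (8.85 to 10.0, n = 76) for pairs and 11.1 (10.8 to 11.4, n = 488) for single sites. These intervals did not overlap either. Pairs there reached 1451 bp and single sites 3373 bp, so their extents were less alike than in the 3 classes. The larger of 2 values is raised by its choice, and no difference was tested.

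Median scores of members and lone narrow sites lay close together. The median score was 7.99 (95% interval 7.83 to 8.14) for the 526 members, whose middle 50% ran from 7.06 to 9.09, with extremes of 4.42 and 25.9. For the 1224 lone narrow sites it was 7.87 (7.80 to 7.97), the middle 50% ran from 7.07 to 8.96, and the extremes were 4.41 and 27.5. The difference of 0.12 was within the width of the members' interval. With sites below 500 bp taken as narrow it was -0.0036, and with the list restricted to scores from its median upwards it was 0.47. Its sign therefore depends on the width limit and its size on the score limit. The median score of the whole list, 8.53, was reached by 186 members, or 35.4%, and by 409 lone narrow sites, or 33.4%, but by 819 of the 1073 sites of 400 bp or more, or 76.3%.

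Compared at equal width, members lay a little higher. In 7 of 8 width classes the median score of the members was above that of the lone narrow sites, by 0.17 to 0.39, and below 100 bp it differed by -0.02. The mean of these differences, weighted by the number of members, was 0.24. In each class the intervals of both medians overlapped. The largest class, 200 bp or more but below 250 bp, gave 8.38 (95% interval 8.14 to 8.84, n = 141) for members and 8.08 (7.93 to 8.24, n = 327) for lone sites. Both sets rose with width, from 6.76 and 6.78 below 100 bp to 8.75 and 8.35 at 300 bp or more but below 350 bp. In the widest class, 350 bp or more but below 400 bp, they were lower, at 8.44 and 8.27. Score varied little with the gap, with medians of 7.88 for gaps below 75 bp, 8.31 for gaps from 150 to 200 bp and 7.94 for longer ones.

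**Figure D3:**
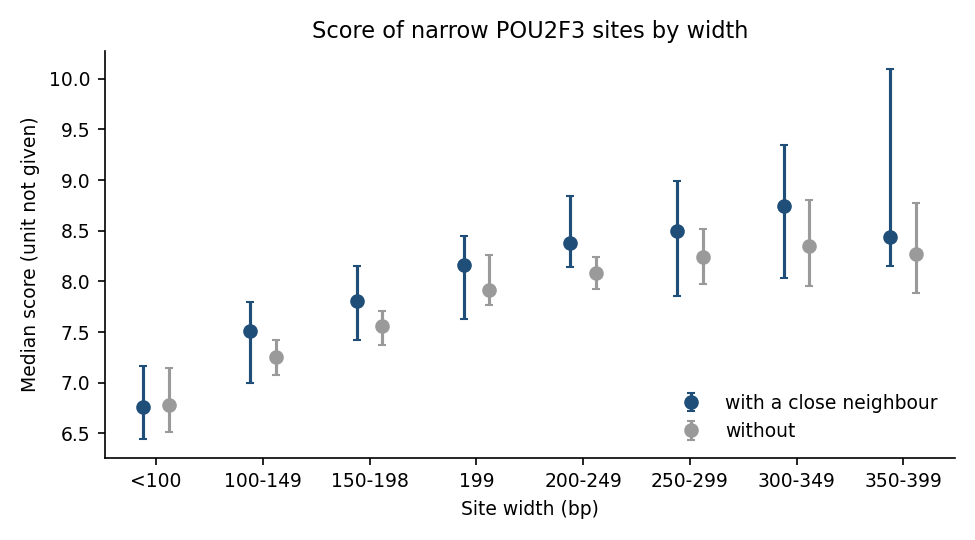
Median score (unit not given) of narrow sites with (blue) and without (grey) a close neighbour in 8 width classes in bp, with 95% intervals of the median from the ranks of the sites. Medians rise with width in both sets up to the class before the last and are lower in the widest class. The blue ones lie above the grey ones from 100 bp on, and the intervals overlap in every class.

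Within a pair the sites often differed in score. In the 212 pairs of narrow sites the median difference was 1.29 (95% interval 1.04 to 1.57), with quartiles of 0.51 and 2.23 and a largest value of 6.94. Over all combinations of 2 members, also those outside narrow pairs, the median difference was 1.54. That lay inside the interval of the pairs, near its upper end. Whether partners are more alike in score than other members was not tested. The difference was below 1 in 89 of the 212 narrow pairs, or 42.0% (exact 95% interval 35.3 to 48.9%). The wider site had the higher score in 135 of 211 narrow pairs of unequal width, or 64.0% (exact 95% interval 57.1 to 70.5%).

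In pairs with a broad partner, the narrow site was usually the weaker and could be very short. Its median width was 166 bp, against 584 bp for the partner. Its median score was 7.63 (95% interval 7.31 to 7.995), against 9.89 (9.34 to 11.0). The broad site scored higher in 44 of 51 such pairs, or 86.3% (exact 95% interval 73.7 to 94.3%). Broad sites scored higher over the whole list as well. Its median score was reached by 76.3% of sites of 400 bp or more, against 35.4% of members and 33.4% of lone narrow sites. A higher score of the broad site was thus not shown to be particular to these pairs. The widest contrast was at chr9:42996501-42998145, where a site of 1269 bp with a score of 15.4 was followed, after a gap of 294 bp, by a site of 82 bp with a score of 5.89. The gap in these pairs had a median of 146 bp (95% interval 88 to 190 bp), against 97 bp (87 to 106 bp) in narrow pairs.

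Pairs in which both sites scored high were few. The pair with the highest lower score lay on chromosome 6, with a site of 223 bp at chr6:49186231-49186453 that scored 23.1 and, 118 bp on, a site of 268 bp at chr6:49186572-49186839 that scored 25.9. These were the only members with a score above 20, and both were among the 10 highest scores of the list. Next was a pair on X, at chrX:120112614-120112861 and chrX:120112983-120113191, with scores of 14.7 and 13.2 and a gap of 121 bp. The lower score therefore dropped from 23.1 to 13.2 between the first and the second pair. The other 3 pairs lay at chr4:141631799-141632388 with scores of 12.04 and 11.7, at chr13:98212653-98213170 with 12.01 and 11.6, and at chr2:169755101-169755746 with 11.5 at both sites. Their gaps were 109, 87 and 179 bp, and all 5 of these pairs consisted of narrow sites with centres 302.5 to 412.5 bp apart. The highest lone narrow site, at chr8:15520072-15520336, scored 27.5 and had no other site within 324 kb, and the next scored 15.4.

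The chain with the most sites was built of sites of nearly equal width. It held 7 narrow sites over 2939 bp at chr5:14923787-14926725. Their widths were 199, 219, 232, 199, 203, 227 and 231 bp, and the gaps between them were 291, 137, 441, 182, 302 and 76 bp. Shorter and longer gaps thus alternated along the chain. The scores were 7.46, 7.53, 9.22, 8.30, 10.3, 10.00 and 8.84, so the 2 lowest stood at its start and no site stood far above the rest.

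The chains of 4 sites held narrow sites only. The one at chr10:17440953-17441974 had widths of 207, 250, 91 and 73 bp, gaps of 91, 158 and 152 bp, and scores of 10.0, 8.28, 9.10 and 7.58. The one at chr3:136651877-136653567 consisted of a pair of pairs, with gaps of 73 and 134 bp inside the pairs and 594 bp between them. In each of its pairs the first site was the wider and the higher in score, with 276 and 178 bp and scores of 9.77 and 8.55 in the first, and 259 and 177 bp and scores of 9.53 and 8.31 in the second. The 3-site chains with the highest best scores were of another make, with 1 narrow and 2 broad sites. At chr11:112672155-112674316 a narrow site of 319 bp with a score of 8.84 lay between sites of 419 and 748 bp with scores of 10.8 and 14.6. At chr5:74744445-74747430 a narrow site of 348 bp with a score of 9.46 preceded sites of 513 and 718 bp with scores of 6.79 and 11.96.

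**Figure D4:**
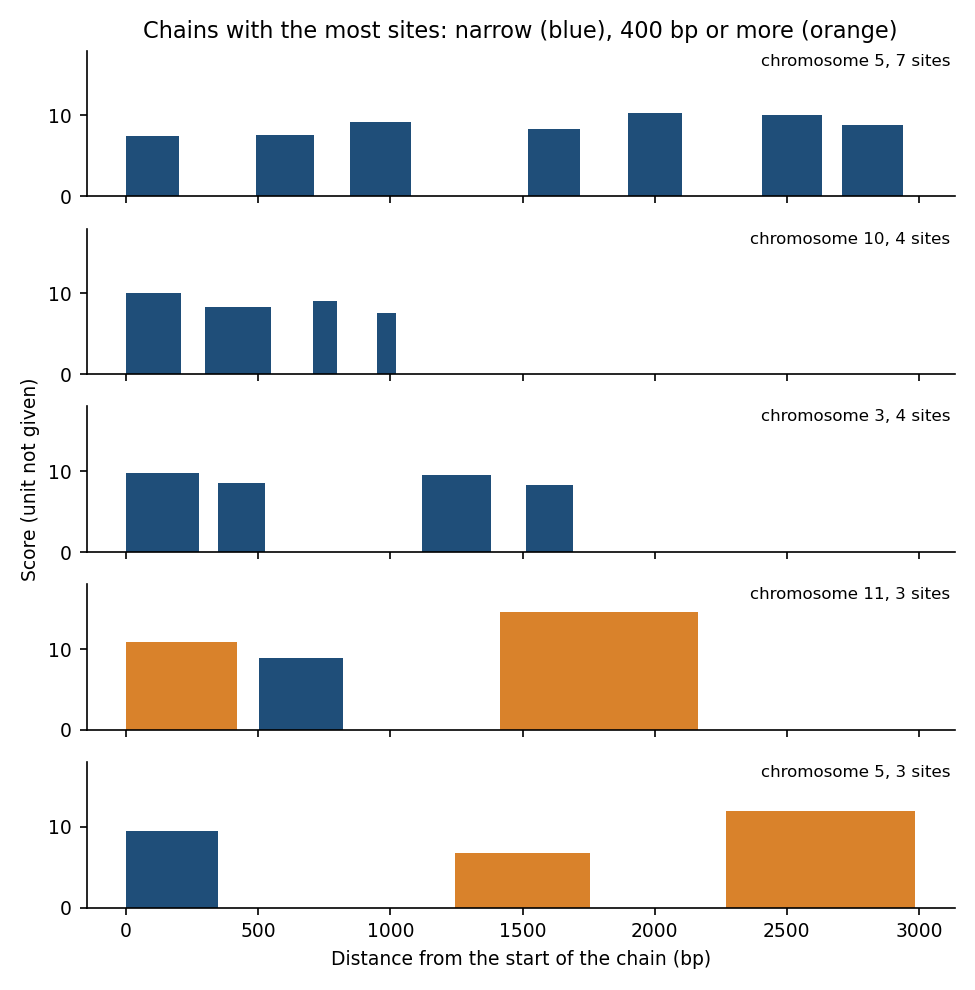
Chains with the most sites, with ties ordered by best score, drawn to scale along the distance from the start of the chain in bp. Each bar is a site as wide as listed and as high as its score (unit not given), blue for narrow sites and orange for sites of 400 bp or more. The 7 sites of the first chain are 199 to 232 bp wide, and the chains of 3 sites hold 2 broad sites each.

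Pair shapes recurred only loosely. Pairs were compared by the widths of both sites and the gap, read in either direction. With all 3 lengths within 10 bp, 59 of the 263 pairs had a like-shaped pair elsewhere, and they linked into 25 groups, 20 of them of 2 places. Within 2 bp, 0 of 263 had one, and within 20 bp 158 had one. By the approximation that a count of 0 allows for up to 3, the share within 2 bp could reach 1.14% for counting error alone. Without sites of 199 bp the number within 10 bp was 30, and among sites at or above the median score it was 0. These settings held 240 and 58 chains, of which 92.5% and 94.8% were pairs, against 282 chains in the main setting. With fewer pairs there are fewer to match, so these counts cannot be set directly beside 59. No group had a pair of its places within 1 Mb of each other, and 3 groups had places on the same chromosome. Groups were linked step by step from pair to pair, so 2 places of a group can differ by more than 10 bp. The largest group joined a site of 191 to 201 bp to one of 251 to 270 bp across 54 to 63 bp, so not all its places matched one another. Its places were chr10:96087020-96087547, chr3:136273117-136273627, chr6:129747266-129747770, chr7:31629701-31630223 and chr8:45967868-45968381, with scores between 6.82 and 11.7. Like-shaped pairs thus lay at scattered places, and the wider site scored higher in 3 of those 5 pairs.

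Another 4 shapes occurred at 3 or 4 places. Sites of 189 to 206 bp and 221 to 230 bp across 64 to 71 bp were found at 4 places on chromosomes 1, 4 and 18. Sites of 199 to 206 bp and 283 to 294 bp across 92 to 107 bp were found at 4 places on chromosomes 2, 16 and 19. The remaining groups had 3 places each. One joined 199 to 206 bp and 360 to 375 bp across 54 to 56 bp, on chromosomes 6, 11 and 18. The other joined 193 to 204 bp and 165 to 181 bp across 162 to 170 bp, on chromosomes 11, 14 and X. All 5 groups with 3 or more places had a site near 199 bp, the most common width. This did not hold for all 20 groups of 2 places, such as the one with sites of 272 and 259 bp at chr2:133375079-133375669.

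Some stretches of the genome carried several chains. Of 244 windows of 1 Mb with a chain, 213 held 1 chain, 26 held 2, 3 held 3 and 2 held 4, and with windows of 2 Mb 11 held 3 or more. Chromosome 10 from 43000001 to 44000000 held 4 chains with 8 members among 16 sites, all narrow pairs, whose scores ran from 6.59 to 10.7. The closest of these pairs, at chr10:43461464-43462320 and chr10:43468060-43468690, were 5.74 kb apart, and the most distant neighbours 500 kb. Of the 13 narrow sites in this window 8 were members, against 30.1% of all narrow sites. The windows named here were picked for their many chains, so such shares are not independent of that choice. Chromosome 8 from 19000001 to 20000000 also held 4 chains, but these had 5 members and 3 broad partners, and lay 8.10 to 40.5 kb apart. Its 14 sites were all found in a stretch from 19681394 to 19798862. Of these, 11 were narrow, and 5 of the 11 were members. Member scores there had a median of 7.94, against 7.66 for its lone narrow sites.

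The windows of 3 chains lay on chromosomes 2, X and Y and each held 6 members. The window on chromosome 2 had 6 narrow sites, all of them members. The window on Y held 9 of the 11 sites of that chromosome, all narrow, and 6 of these 9 were members. On chromosome 2, from 3000001 to 4000000, the members had a median score of 6.08, and among them was the lowest of all members, 4.42. The second of its pairs was uneven, with 6.92 at chr2:3423315-3423513 and 11.3 at chr2:3423607-3423790. On X, from 121000001 to 122000000, 23 of 25 sites were narrow and 6 of these 23 were members, with scores of 7.32 to 11.0. For comparison, members made up 22.4% of the narrow sites on the whole of X and 30.1% of all narrow sites. That window held 23 of the 67 narrow sites of X, so it weighs heavily in the first of these shares. The other 17 narrow sites of that window were lone.

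**Figure D5:**
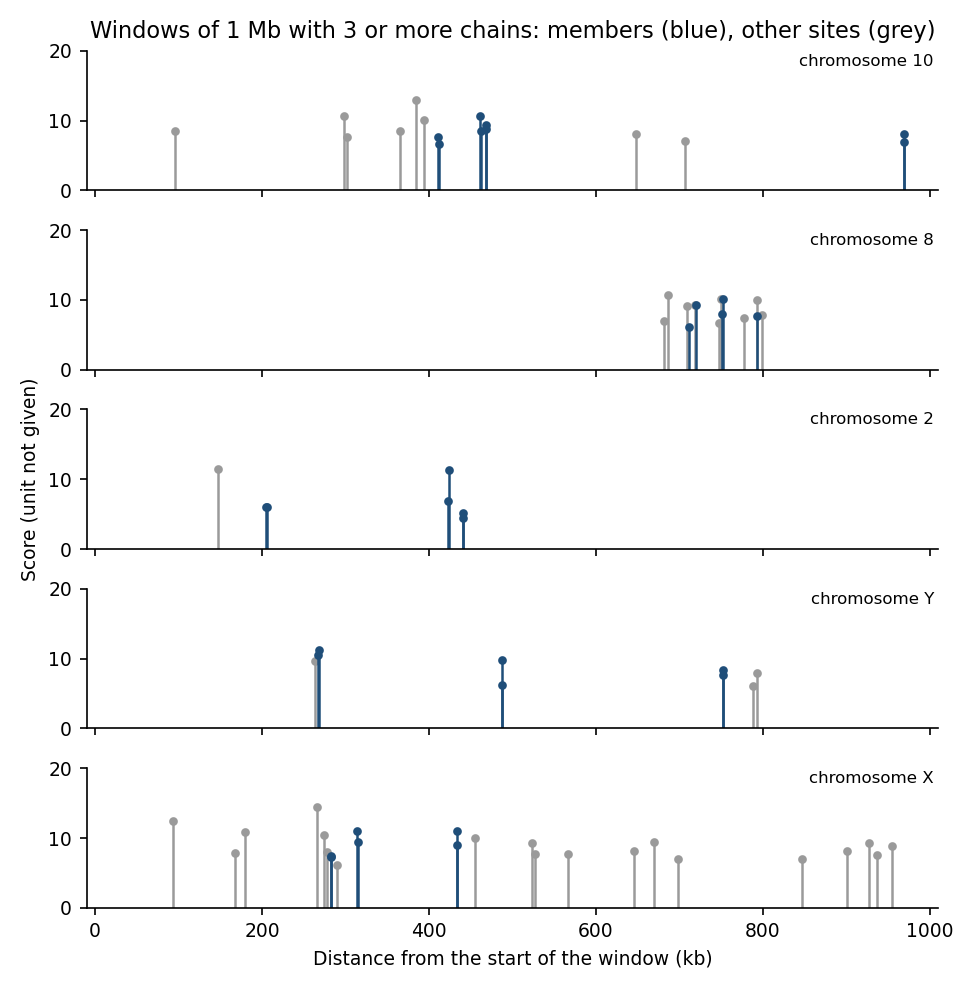
Sites in the 5 windows of 1 Mb that hold 3 or more chains, by distance from the start of the window in kb and score (unit not given). Members are blue and all other sites grey. Pairs appear as blue points above one another, and on X most of the 25 sites are grey.

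Members were found on every chromosome of the rule. On autosomes between 18.4% (chromosome 18) and 40.2% (chromosome 10) of the narrow sites had a close neighbour, and the exact 95% intervals of 17 of the 19 autosomes held the overall 30.1%. The exceptions were chromosome 3 with 42 of 106, or 39.6% (30.3 to 49.6%), and chromosome 10 with 39 of 97, or 40.2% (30.4 to 50.7%), whose lower bounds lay just above it. The intervals are not adjusted for the 21 chromosomes examined. X had 15 members among 67 narrow sites, or 22.4% (13.1 to 34.2%). Y had 8 among 11, or 72.7% (39.0 to 94.0%), the highest share and the smallest number of sites.

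The Y members formed 4 narrow pairs. The first lay at chrY:346254-346583, with sites of 61 and 138 bp, a gap of 131 bp and scores of 6.77 and 7.41. The second, at chrY:1266830-1268224, had the widest gap of all members, 934 bp, and the highest Y scores, 10.5 and 11.2. The others lay at chrY:1487068-1487612, with a gap of 92 bp and scores of 9.78 and 6.21, and at chrY:1751720-1752174, with a gap of 66 bp and scores of 8.45 and 7.64. Y pairs thus covered almost the full range of gaps seen in the whole set.

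At the limits of the rule, few sites decided membership. The widest members measured 398 bp, at chr5:102723321-102723718, chr7:86446815-86447212 and chr19:5833943-5834340, and scored 6.89, 8.19 and 8.44. The narrowest site with a close neighbour past the width limit measured 418 bp, at chr11:99230875-99231292, and scored 9.27. Past the gap limit, the first narrow sites were a pair on X, 1015 bp apart at chrX:122332916-122333119 and chrX:122334135-122334272, with scores of 8.39 and 7.51. No narrow site had a gap between 934 and 1015 bp, so the gap limit fell in an empty stretch.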

How the data were processed

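POU2F3 ChIPmentation was carried out on 2 samples of sorted tuft cells, with 1 IgG and 1 input sample. The authors deposited 1 list of sites without a header, and its score, per site, has no stated meaning. The submitters' processing notes list Bowtie 0.12.8, SAMtools 1.3.1, MACS2, FastQC and the mm9 build but assign them no step. The calling threshold, the control, the pooling of samples and the distance below which calls were merged are not given in the sources used here. Widths and gaps can depend on each of them, which was not tested. Depth per sample is unknown.

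Sites were sorted, and gaps were taken between the edges of adjacent sites. Mitochondrial sites were left out. Shares have exact Clopper-Pearson 95% intervals, except for the approximate limit of a count of 0, and medians have 95% intervals from binomial ranks. Named places follow a rule: the 5 chains with most sites and the 5 pairs with the highest lower score. The others are the 5 largest groups of like-shaped pairs, the 5 windows with most chains, and sites nearest to the limits. The shortest pairs, the most unequal pair, the Y pairs and the highest lone sites were named after their values were seen. The members and lists were chosen with earlier results of these data known. No test was run, because the members were chosen by widths and gaps. The neighbour search was checked on simulated sites with known chains. Python 3.11.15, NumPy 2.4.6, pandas 2.3.3, SciPy 1.17.1 and Matplotlib 3.10.9 were used.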

Additional observations from a re-analysis of the deposited data

How the results depend on the processing

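Of 52 alternative values of 7 results, 35 stayed close to the main value, 16 moved and 1 reversed. Counts were called close within 1.5 times the main value, and shares inside the exact interval of the main share. For the score difference the allowed change was set from the width of the members' interval and exceeds the difference itself. A label of close therefore says little about that difference. Reversed means a change of sign. Only the score threshold moved the number of members by over 1.5 times. Restricting the list to its better-scoring part, from the median score upwards, left 107 members, 17.98% of the narrow sites, of which 79.4% had gaps of 200 bp or less, with 0 pairs of recurrent shape and a median score 0.47 above that of lone narrow sites. That setting holds fewer sites and only 58 chains in place of 282, so fewer pairs could match in shape. The share of narrow sites with a close neighbour was 26.7% with a width limit of 500 bp, 26.9% with narrow neighbours only, 27.8% without sites of the most common width, 25.4% for gaps of 200 bp or less and 32.7% for gaps of 2000 bp or less. Pairs made up 97.5% of chains at a gap limit of 200 bp and 96.2% at 500 bp. A stricter limit breaks chains, so these moves follow from how the settings are built. The median score difference of 0.12 became -0.0036 with a width limit of 500 bp, and the cause was not tested. Pairs with a like-shaped pair elsewhere numbered 0 within 2 bp, 158 within 20 bp and 30 without sites of the most common width, in place of 59. Windows of 2 Mb with 3 or more chains numbered 11 in place of 5. Leaving out a replicate could not be tried. No paired analysis was possible because each site has a single value for the whole series. Depth is unknown, so a narrow site without a listed neighbour is not shown to lack one.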

Other observations

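The mitochondrial genome, which the rule leaves out, held 5 sites, of which 2 were narrow and had a close neighbour. They lay at positions 7802 to 8085 and 13832 to 14194, with scores of 4.64 and 2.95. The second was 106 bp from a site of 510 bp that scored 2.24, the lowest score of the list.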
